A study of Mus musculus with 6 samples.

Results

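The lysyl oxidases are the 5 mouse genes Lox, Loxl1, Loxl2, Loxl3 and Loxl4, described here in cochlear organoids kept in soft or stiff gels. The genes were chosen by name, as a whole family, with the measured values of this soft and stiff comparison already known. For that reason the difference between gels is given for each of them as a description, with no test. All 5 were found among the 15016 genes of the deposited table.

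Lysyl oxidases are secreted, copper-dependent amine oxidases. They oxidise lysine and hydroxylysine side chains of collagens and elastin to aldehydes, which then react with neighbouring chains to form the covalent cross-links that stiffen and stabilise a matrix. Lox and Loxl1 carry a propeptide that is removed outside the cell by BMP1-type proteases, whereas Loxl2, Loxl3 and Loxl4 carry scavenger receptor cysteine-rich domains ahead of the catalytic domain. The cochlea is rich in fibrillar collagens, above all in the tectorial membrane, and in basement membrane collagen.

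RNA-seq had been done on 6 libraries, 3 from soft gels and 3 from stiff gels. Both groups were organoids of wild-type (WT) mouse cochlear progenitor cells; the age of the mice was not given in the sources used here. All organoids were first expanded for 8 to 10 days with EGF, bFGF, IGF, CHIR99021 (a GSK3 inhibitor), valproic acid, 2-phospho-L-ascorbic acid and 616452, an inhibitor of the type I TGF-beta receptor. They then received a differentiation medium with 3 μM CHIR99021 and 5 μM LY411575, a gamma-secretase inhibitor, and at that stage were divided between hydrogels of 2 stiffnesses. The gels were hybrids of methacrylated gelatin and hyaluronic acid with an RGD adhesion peptide, so both groups lay in a matrix of denatured collagen. How stiff each gel was and how long organoids stayed in it is not given in the sources used here. Whether the numbered replicates came from different cultures or mice is not labelled either, so a p-value below covers library-to-library spread that may be technical in origin. Reads rebuilt from the deposited values summed to 16108470 to 17899391 per library over the genes of the deposited table, which is not the full sequencing depth.

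Levels are in FPKM, reads scaled to gene length and library depth, so that genes can be compared with each other as far as the lengths hold. The length the table implies was not the annotated exon length for every member, with the widest gap for Loxl4 (5532 bases against 4213 in GENCODE M21). A length cancels out of the ratio of a gene's stiff level to its soft level, but it touches levels, shares and ratios between genes. Each difference is the stiff mean less the soft mean of log2(FPKM + 1), taken from a limma fit over 11780 genes with a mean of at least 1 FPKM in either group. The addition of 1 understates the change of genes at a few FPKM. A gene other than a family member is said to have risen or fallen where its Benjamini-Hochberg adjusted p in that fit was under 0.05. By that criterion 369 genes (3.13%) rose and 316 (2.68%) fell in stiff gels, together 5.81% of the genes tested. Over the genes that fell, soft replicate 1 mostly lay below the mean of soft replicates 2 and 3. With the stiff mean as 0% and that mean as 100%, its median place was 60.8% (interquartile range 46.9% to 83.4%). The place was worked out for soft replicate 1 alone, over genes picked with the same libraries, so it does not show that this library stands apart. Results are also given without soft replicate 1 where it moved them.

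In stiff gels 3 lysyl oxidases were lower, Lox, Loxl2 and Loxl4, and the other 2, Loxl1 and Loxl3, overlapped between the gels. The mean level in stiff gels was 22.3% of the soft mean for Lox, 23.2% for Loxl2 and 32.4% for Loxl4. All 5 members passed the filter on low values. The 3 lower genes were also past the adjusted p threshold, against 2.68% of all genes tested, a count that the choice of the family bears on and from which nothing is read. When single libraries were left out in turn, the fits past the threshold were 6 for Loxl4, 2 each for Lox and Loxl2, 1 for Loxl3 and 0 for Loxl1. The choice of the family bears on these counts too, so they are no test of the members and do not rank them. In all 3 the highest stiff library lay below the lowest soft library, which was so for 10.4% of all genes tested. The median log2 difference was -1.25 over the 5 members and 0.03 over all genes tested. In a bulk measurement, fewer cells expressing a gene and less RNA of it per cell cannot be told apart.

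**Figure D1:**
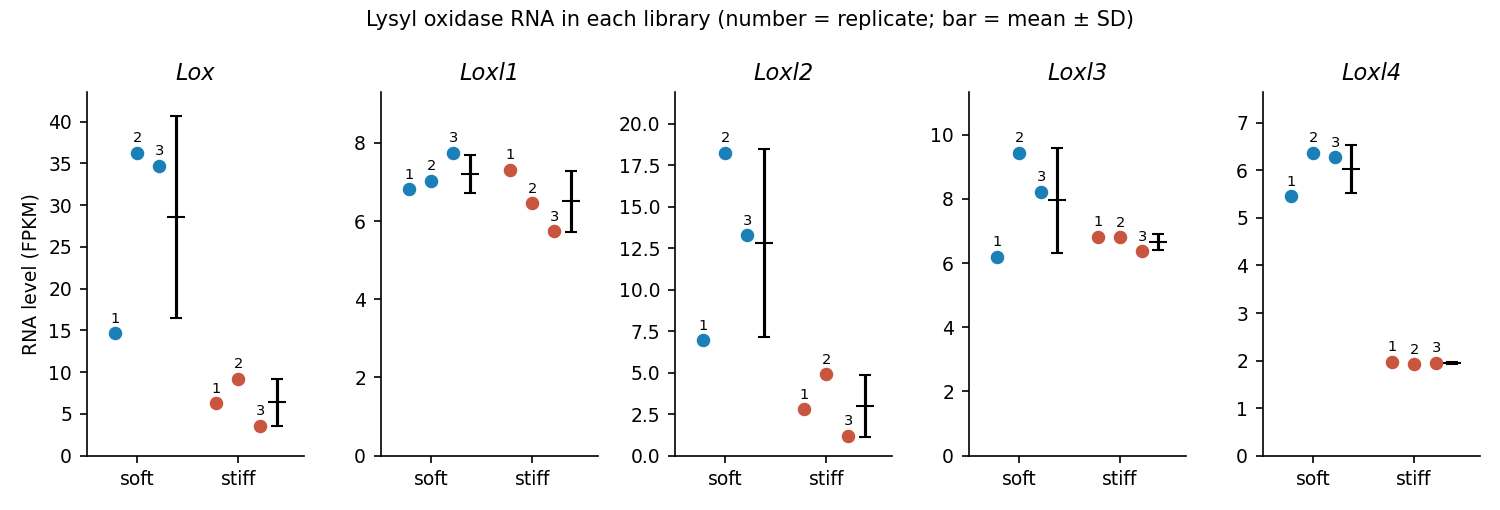
FPKM of each lysyl oxidase, with a linear axis from 0 for each gene, 1 point per library numbered by replicate, soft gels (blue) beside stiff gels (red), and the group mean ± SD in black. Lox, Loxl2 and Loxl4 have all stiff libraries below all soft libraries, with Lox and Loxl2 widely spread and Loxl4 tightly grouped, and the groups of Loxl1 and Loxl3 overlap.

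Loxl4 was the 1 member with an entry among the RefSeq promoters, so the sequence in front of this gene is shown. In RefSeq on build GRCm38.p6 the 250 bases before its annotated start are chr19:42612807-42613056 on the minus strand. They are printed 5′ to 3′, with the core of a hypoxia response element in capitals, read here as CACGC and on the other strand as GCGTG.
Loxl4 promoter: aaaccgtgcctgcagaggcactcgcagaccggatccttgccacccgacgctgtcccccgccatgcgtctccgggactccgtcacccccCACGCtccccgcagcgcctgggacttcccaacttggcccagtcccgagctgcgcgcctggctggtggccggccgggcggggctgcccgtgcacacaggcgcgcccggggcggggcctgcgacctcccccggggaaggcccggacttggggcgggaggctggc
The stretch is 76% G and C, against a median of 52.4% over 32851 promoters of the same length. Each motif was searched on both strands. The hypoxia core, ACGTG or GCGTG, matched 1 time, and 38.6% of all promoters held at least 1 match. The GC box GGGCGG, to which SP1-type factors bind, matched 3 times and was held by 32.7% of promoters. The SMAD motif CAGAC matched 1 time and was held by 42.2%. The TEAD motif GGAATG (12.6% of promoters), the AP-1 motif TGACTCA (4.46%), the Snail E-box CAGGTG (17.2%) and the TATA box TATAAA (12.4%) were not among the letters of this window. Such short matches describe the sequence and are not evidence of binding.

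Lox is the founding member, which cross-links fibrillar collagen and elastin. On build GRCm38 (mm10, GENCODE M21 annotation) it has 8 exons on the minus strand of chromosome 18, from 52516067 to 52529867. Its level was 14.7, 36.3 and 34.7 FPKM in soft replicates 1 to 3 and 6.32, 9.22 and 3.60 FPKM in stiff replicates 1 to 3. Soft replicates 2 and 3 were the high libraries, and soft replicate 1 was nearer to the highest stiff library than to them, with a level 1.59 times that of stiff replicate 2. The group means were 28.6 ± 12.1 and 6.38 ± 2.81 FPKM (SD, n = 3 each). The difference was -1.97 ± 0.36 (SE) on the log2 scale. Over all 6 libraries the highest level was 10.1 times the lowest. The reads behind the values ran from 264 to 2960 per library, so the spread of 42.3% (coefficient of variation) among soft libraries and 44.1% among stiff ones was far above the 2.08% and 4.47% that counting alone would give.

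Loxl2 acts on collagen IV of basement membranes, among other substrates, and has been described inside the cell as a partner of Snail. It has 14 exons on the plus strand of chromosome 14, from 69609068 to 69695834, on the same build. Its level was 6.96, 18.2 and 13.3 FPKM in the soft libraries and 2.80, 4.92 and 1.21 FPKM in the stiff libraries, in replicate order. The groups did not overlap, and as for Lox the lowest soft library was replicate 1 and the lowest stiff library replicate 3. The means were 12.8 ± 5.66 and 2.98 ± 1.86 FPKM (SD, n = 3 each), a difference of -1.82 ± 0.38 (SE). The stiff libraries were more widely spread than those of any other member, with a coefficient of variation of 62.5% and a highest level 4.07 times the lowest.

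Loxl4 is the least studied of the scavenger-domain members. It has 15 exons on the minus strand of chromosome 19, from 42593982 to 42612813. It was measured at 5.46, 6.37 and 6.27 FPKM in the soft libraries and at 1.98, 1.93 and 1.95 FPKM in the stiff libraries. The libraries of each group lay close together, and the lowest soft library was 2.76 times the highest stiff library. The means were 6.03 ± 0.50 and 1.95 ± 0.03 FPKM (SD, n = 3 each), a difference of -1.25 ± 0.08 (SE). From 174 to 195 reads stood behind each stiff value, for which counting alone gives a coefficient of variation of 7.37%. The observed 1.33% was below that, so the near equality of the stiff libraries is no measure of how precise the level is. Soft replicate 1 was at 86.1% of the way from the stiff mean to the other soft libraries for Loxl4, but at 48.7% for Lox and 51.3% for Loxl2.

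Loxl1 is the member tied most closely to elastic fibres. It has 7 exons on the minus strand of chromosome 9, from 58287738 to 58313186. Its level was 6.81, 7.03 and 7.75 FPKM in soft gels and 7.31, 6.45 and 5.75 FPKM in stiff gels. The groups overlapped, with stiff replicate 1 above soft replicates 1 and 2. The means were 7.20 ± 0.49 and 6.50 ± 0.78 FPKM (SD, n = 3 each), a difference of -0.13 ± 0.09 (SE). The highest of the 6 libraries was 1.35 times the lowest.

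Loxl3 oxidises collagens and fibronectin, and human variants in it have been linked to Stickler syndrome, a collagen disorder with hearing loss. It has 14 exons on the plus strand of chromosome 6, from 83034173 to 83052562. Its level was 6.20, 9.44 and 8.22 FPKM in soft gels and 6.82, 6.81 and 6.38 FPKM in stiff gels. Soft replicate 1 was the lowest of all 6 libraries, while soft replicates 2 and 3 lay above every stiff library. The means were 7.95 ± 1.64 and 6.67 ± 0.25 FPKM (SD, n = 3 each), a difference of -0.21 ± 0.12 (SE). Without soft replicate 1 the difference was -0.36. Loxl3 shares 535 exon bases with Htra2 on the opposite strand, a gene for a mitochondrial protease at 13.1 to 15.3 FPKM in these libraries. The library kit does not mark strand, so reads from that stretch cannot be assigned to either gene.

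In the authors' deposited table the log2 fold changes were -2.19 for Lox, -2.13 for Loxl2, -1.66 for Loxl4, -0.28 for Loxl3 and -0.17 for Loxl1, with no addition of 1. The order of the members was the same as in the limma fit. In the limma fit, on the log2(FPKM + 1) scale, Lox, Loxl2 and Loxl4 were among the larger decreases. Of 11780 genes tested, 53 were lower by 1 or more on the log2 scale. Those with a difference at least as low, the member itself counted, were 4 for Lox, 5 for Loxl2 and 31 for Loxl4.

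**Figure D2:**
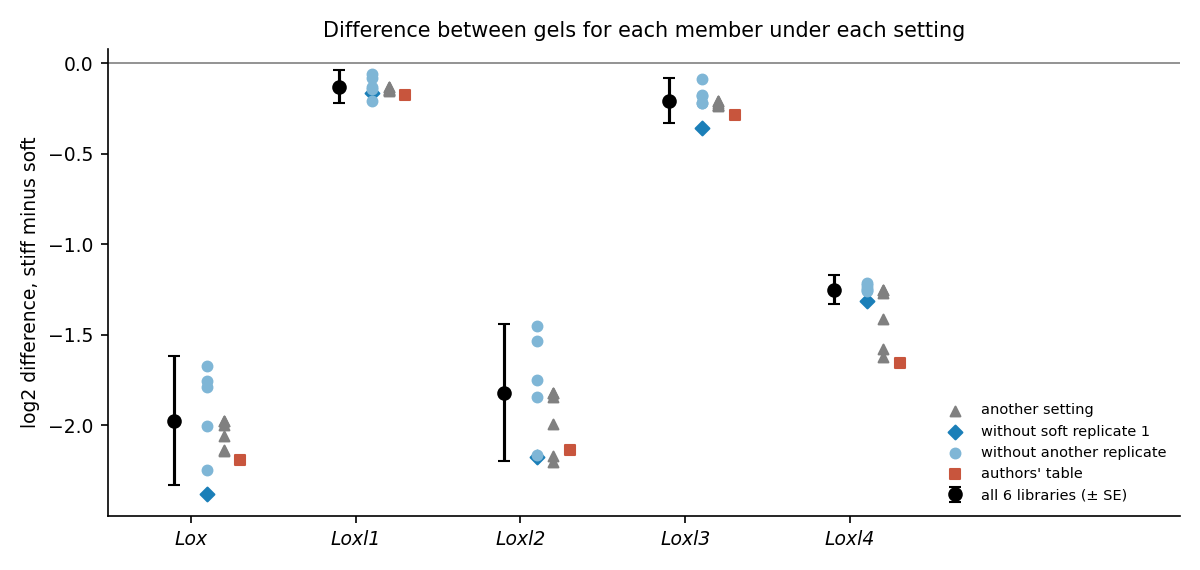
Difference of each lysyl oxidase between stiff and soft gels (log2) with all 6 libraries (black, ± SE), without soft replicate 1 (dark blue diamonds), without another replicate (light blue circles), under other settings (grey triangles) and in the authors' deposited table (red squares). Lox and Loxl2 spread widely when single libraries are left out, Loxl4 shifts more under other settings (down to -1.62) than when libraries are left out (-1.31 to -1.21), and Loxl1 and Loxl3 stay between -0.36 and -0.06.

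Leaving out single libraries moved the 3 lower genes to unequal degrees. The difference for Lox ran from -2.38 without soft replicate 1 to -1.67, that for Loxl2 from -2.17 to -1.45, and that for Loxl4 from -1.31 to -1.21. The sign held in each of these fits.

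The make-up of the family therefore differed between the gels. Summed over the 5 genes, the level was 40.1, 77.4 and 70.2 FPKM in soft gels and 25.2, 29.3 and 18.9 FPKM in stiff gels, again without overlap. Lox made up 44.3% ± 6.83 of the sum in soft gels and 25.2% ± 6.20 in stiff gels (SD, n = 3 each). The share of Loxl2 was 19.9% ± 3.24 in soft gels and 11.4% ± 5.19 in stiff gels. Loxl1 and Loxl3, the members whose levels overlapped, took 12.4% ± 4.12 and 13.1% ± 2.04 in soft gels and 27.1% ± 4.51 and 28.01% ± 5.34 in stiff gels. Loxl4 took 10.3% ± 2.93 and 8.25% ± 1.92, so its share overlapped although its level did not.

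**Figure D3:**
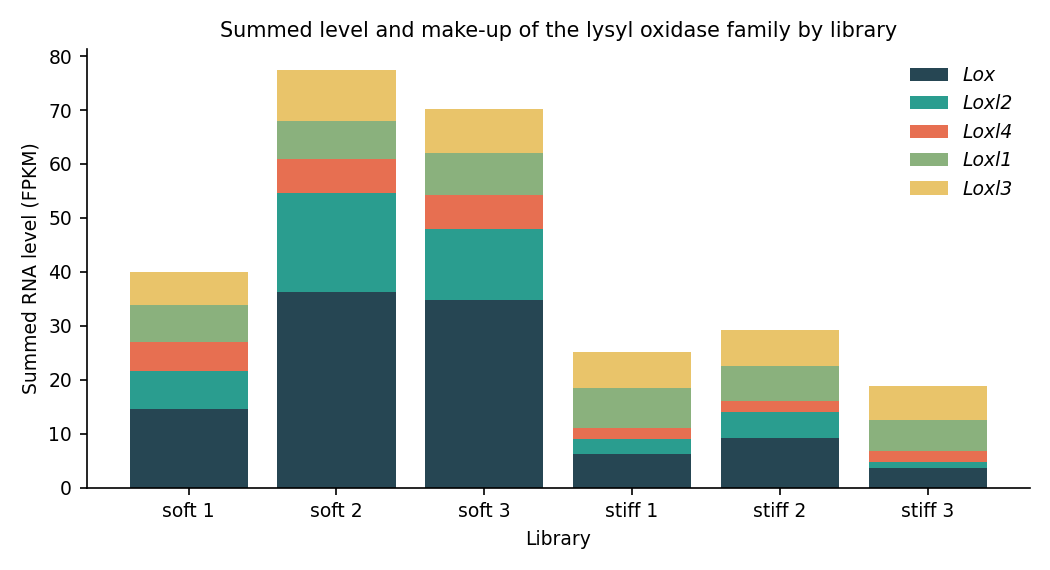
FPKM of the 5 lysyl oxidases stacked per library, soft replicates 1 to 3 and stiff replicates 1 to 3. The sum runs from 40.1 to 77.4 FPKM in soft gels and from 18.9 to 29.3 FPKM in stiff gels, and the Lox and Loxl2 parts account for most of the gap while the Loxl1 and Loxl3 parts are of similar height throughout.

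Lox was the most abundant member in every soft library. In stiff gels the first place was held by Loxl1 in replicate 1, by Lox in replicate 2 and by Loxl3 in replicate 3. The stiff means of Lox, Loxl1 and Loxl3 (6.38, 6.50 and 6.67 FPKM) differed by less than the SD of Lox (2.81) or of Loxl1 (0.78). Below Lox and Loxl2 in soft gels, Loxl3, Loxl1 and Loxl4 followed at 7.95, 7.20 and 6.03 FPKM, with overlapping libraries between Loxl3 and both others. This order rests on the gene lengths. With the annotated exon lengths, a check added after the data were seen, the soft means were 7.92 ± 0.66 for Loxl4, 7.29 ± 0.50 for Loxl1 and 7.03 ± 1.45 for Loxl3, in the opposite order and overlapping. Lox was still first in every soft library, and in stiff gels Loxl1 took the first place in replicate 3 as well as in replicate 1. The ratio of Lox to Loxl1 was 3.93 ± 1.58 in soft gels and 0.97 ± 0.41 in stiff gels. The ratio of Loxl1 to Loxl4 was 1.196 ± 0.080 and 3.33 ± 0.38, without overlap. The ratio of Loxl1 to Loxl3 was nearly the same in the gels, 0.93 ± 0.18 and 0.97 ± 0.09 (SD, n = 3 each).

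Lox and Loxl2 followed one another from library to library. Both were highest in soft replicate 2, followed by soft 3, soft 1, stiff 2, stiff 1 and stiff 3. The ratio of Lox to Loxl2 stayed between 1.88 and 2.98 while each gene varied at least 10.1-fold. Likeness of pattern was measured as the root mean square difference over the 6 libraries between the log2(FPKM + 1) values of a pair of genes, each centred on its own mean. It was 0.16 between Lox and Loxl2, against 1.12 for Lox and 1.07 for Loxl2 from a flat line, and no other gene of those compared was nearer to either. After the group means were removed the distance was 0.14, against 0.53 for Lox and 0.56 for Loxl2. Of 11546 other genes, 3 were then nearer to Lox (Col23a1, Col3a1 and Adamts4) and none was nearer to Loxl2. The 6 libraries are shared by all genes, so these distances are descriptions.

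**Figure D4:**
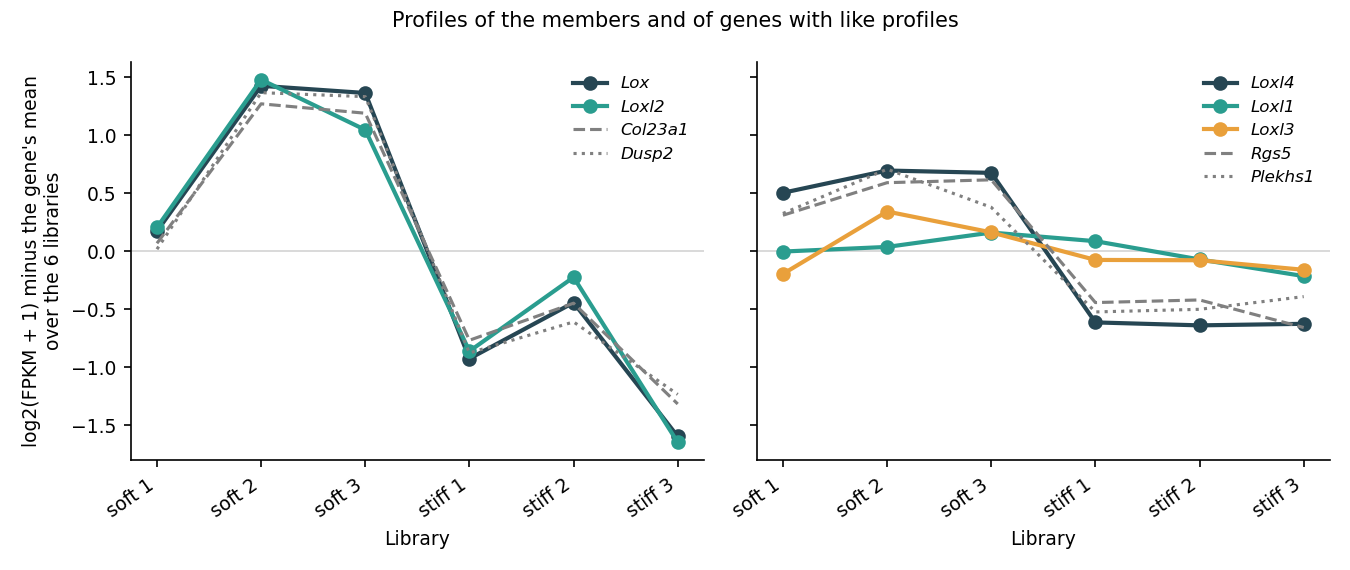
Values of log2(FPKM + 1) centred on each gene's mean, in each of the 6 libraries, with Lox and Loxl2 beside Col23a1 and Dusp2 (left panel) and Loxl4, Loxl1 and Loxl3 beside Rgs5 and Plekhs1 (right panel). Lox and Loxl2 are high and low in the same libraries within each group, Loxl4 forms a near-flat step between the groups, and Loxl1 and Loxl3 stay near 0.

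Outside the family, the genes most like Lox included Col23a1 (distance 0.17), which encodes a transmembrane collagen, Dusp2 (0.18), a phosphatase of MAP kinases, Tnfsf8 (0.27), a ligand of the tumour necrosis factor family, and Lcn2 (0.32), a secreted siderophore-binding protein. Col23a1 was at 12.1, 29.2 and 27.6 FPKM in soft gels and 6.37, 8.20 and 4.04 FPKM in stiff gels. Loxl2 had Col23a1 (0.20), A2m (0.25), Dusp2 (0.27), Ndufa4l2 (0.31) and Lcn2 (0.32) nearest to it. A2m encodes a broad protease inhibitor and Ndufa4l2 a mitochondrial protein induced by hypoxia. Ndufa4l2 was at 5.56, 13.1 and 6.35 FPKM in soft gels and 2.19, 4.30 and 0.22 FPKM in stiff gels, the lowest library being stiff replicate 3, as for Loxl2.

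Loxl4 had other neighbours. Among the nearest were Rgs5 (0.15), a regulator of G protein signalling, Plekhs1 (0.18), Gadd45g (0.19), a stress-response gene, and Ankrd1 (0.20), a target of YAP signalling. Rgs5 was at 15.7, 19.3 and 19.6 FPKM in soft gels and at 8.91, 9.06 and 7.54 FPKM in stiff gels. Lox was 0.61 from Loxl4, with 2897 other genes nearer to Loxl4 and 57 nearer to Lox. None of these genes was among the 5 nearest of Lox or of Loxl2.

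Around the enzymes, 105 of 132 listed genes for substrates, helper enzymes, copper supply and known regulators could be tested. Of these, 7 (6.67%) rose and 11 (10.5%) fell in stiff gels, against 3.13% and 2.68% of all genes tested. The median difference over the 105 genes was -0.15, against 0.03. Without soft replicate 2 the counts were 1 higher and 1 lower, and without soft replicate 1 they were 9 and 36. Calls over all genes moved the same way, to 50 higher and 15 lower without soft replicate 2 and to 860 and 767 without soft replicate 1.

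Among the substrate collagens, 4 of 11 tested genes fell in stiff gels, the other 7 did not pass, and the median was -0.33. Col5a3, a chain of the fibril-forming collagen V, fell from 3.32 ± 0.75 to 1.25 ± 0.13 FPKM (limma adjusted p = 0.00933). Col4a2, a basement membrane chain, fell from 45.9 ± 2.39 to 32.7 ± 3.04 FPKM (limma adjusted p = 0.0132), and its partner Col4a1 fell from 52.3 ± 2.27 to 41.5 ± 4.09 FPKM (limma adjusted p = 0.0439). Col11a1, the cartilage and tectorial membrane collagen, fell from 86.7 ± 7.88 to 65.3 ± 3.996 FPKM (limma adjusted p = 0.0249). Collagen I, the classical substrate of Lox, was nearly absent, with Col1a1 at 0.18 and 0.12 FPKM and Col1a2 at 0.52 and 0.13 FPKM in soft and stiff gels, below the filter. Col2a1, at 137 and 186 FPKM (limma adjusted p = 0.0987), and Col3a1, at 72.8 and 35.1 FPKM (limma adjusted p = 0.074), did not pass. Without soft replicate 1, 8 collagens fell and 1 rose, and without soft replicate 2 all 4 lost their call. Those fits called 767 and 15 of all genes lower, in that order.

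Of 16 elastic fibre and microfibril genes, 4 rose, the other 12 did not pass, and the median was -0.02. Postn encodes periostin, a matrix protein that brings BMP1 to Lox. It was at 18.9, 20.5 and 18.7 FPKM in soft gels and 48.3, 62.3 and 35.9 FPKM in stiff gels, so every stiff library lay above every soft library. It rose by 1.26 ± 0.16 (SE, log2; limma adjusted p = 0.00858) and passed whichever library was left out. Eln, which encodes elastin, rose from 4.78 ± 0.07 to 7.06 ± 0.55 FPKM (limma adjusted p = 0.0122). Mfap2, a microfibril protein, rose from 84.8 ± 3.41 to 122 ± 15.6 FPKM (limma adjusted p = 0.0176), and Fbln2, a fibulin, from 3.43 ± 0.27 to 5.19 ± 0.99 FPKM (limma adjusted p = 0.0492). Without soft replicate 1, 3 of these genes were higher and 4 lower among 17 tested, beside 860 higher and 767 lower over all genes. Fbln2 did not pass in any of the 6 leave-out fits.

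**Figure D5:**
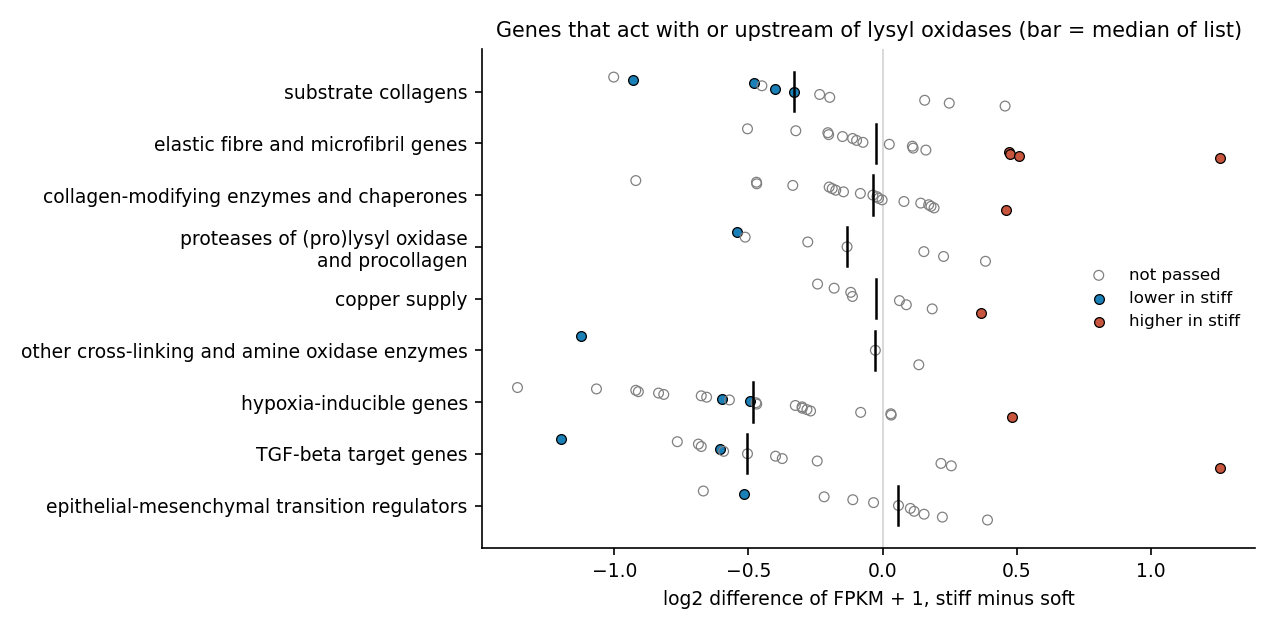
Difference between stiff and soft gels (log2) of each tested gene of the 9 lists around the lysyl oxidases, 1 point per gene, with filled points for genes past the adjusted p threshold (blue lower, red higher in stiff gels) and a bar at each list's median. Collagens, hypoxia-inducible genes and TGF-beta targets have the lowest medians, at -0.33, -0.48 and -0.50, and the elastic fibre genes have Postn farthest to the right.

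The genes that act on collagen chains or on the enzymes were mostly below the threshold. Of 19 collagen-modifying enzymes and chaperones, Colgalt2, a collagen galactosyltransferase, rose from 38.3 ± 5.06 to 52.9 ± 1.59 FPKM (limma adjusted p = 0.0237), and the other 18 did not pass. Plod2, the lysyl hydroxylase that prepares telopeptide lysines for cross-linking, was at 40.5 and 39.9 FPKM. Of 7 proteases and their enhancers, Pcolce, which speeds procollagen cleavage by Bmp1, fell from 60.01 ± 10.7 to 40.7 ± 4.94 FPKM (limma adjusted p = 0.0468), and the other 6 did not pass. Bmp1 itself, which releases active Lox from its propeptide, was at 78.7 ± 17.8 and 54.0 ± 3.92 FPKM (limma adjusted p = 0.0816).

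Of 8 copper supply genes, Ccs, the copper chaperone of superoxide dismutase, rose from 24.3 ± 0.77 to 31.6 ± 0.27 FPKM (limma adjusted p = 0.0113), and the other 7 did not pass. Ccs delivers copper inside the cell and not to lysyl oxidases. Atp7a, the pump that loads copper onto secreted lysyl oxidases, was at 9.28 ± 0.15 and 7.70 ± 0.49 FPKM (limma adjusted p = 0.0758). Of 3 other cross-linking enzymes tested, Tgm2, a transglutaminase that joins glutamine to lysine, fell from 53.8 ± 13.7 to 23.9 ± 3.98 FPKM (limma adjusted p = 0.0132). Pxdn, which forms sulfilimine bonds in collagen IV, was at 28.9 and 28.3 FPKM and did not pass.

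Lox, Loxl2 and Loxl4 are known targets of hypoxia-inducible factors. Of 22 tested hypoxia-inducible genes, 2 fell and 1 rose, the other 19 did not pass, and the median was -0.48. Ddit4, a stress-induced brake on mTOR, fell from 92.7 ± 4.99 to 65.6 ± 3.01 FPKM (limma adjusted p = 0.00918) and passed whichever library was left out. Egln3, an oxygen-sensing prolyl hydroxylase, fell from 3.53 ± 0.53 to 2.00 ± 0.39 FPKM (limma adjusted p = 0.0248), while Mxi1, an antagonist of Myc, rose from 9.93 ± 0.81 to 14.2 ± 0.57 FPKM (limma adjusted p = 0.0109). Of the 22 genes, 16 had all stiff libraries below all soft libraries, against 10.4% of all genes. Among the 16 is Adm, which passed the filter on low values only through its soft mean (1.03 FPKM, against 0.24 FPKM in stiff gels). When either soft replicate 1 or stiff replicate 2 was left out, 10 of the 22 fell and 1 rose, and when any of the other 4 libraries was left out at most 1 fell. Calls over all genes were 767 lower without soft replicate 1 and 216 without stiff replicate 2, against 316 with all 6 libraries. With all 6 libraries, 7 hypoxia-inducible genes fell with limma-voom on the rebuilt reads and 10 with the replicate number as a block. The authors' deposited table called 8 lower. These settings called 435, 329 and 703 of all genes lower, in that order.

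TGF-beta is a classical inducer of Lox. Of 13 tested TGF-beta target genes 2 fell, 1 rose and the other 10 did not pass, with a median of -0.50. Timp1, an inhibitor of matrix metalloproteinases, fell from 68.2 ± 23.0 to 28.2 ± 4.82 FPKM (limma adjusted p = 0.02). Smad7, the feedback inhibitor of the pathway, fell from 23.4 ± 3.45 to 14.9 ± 1.64 FPKM (limma adjusted p = 0.0202), and the gene that rose was Postn, which also stands in the elastic fibre list. Without soft replicate 1, 10 of 14 tested targets fell and 2 rose, beside 767 lower and 860 higher over all genes. The falls of Timp1 and Smad7 were both lost without soft replicate 2, stiff replicate 1 or stiff replicate 3. With limma-voom on reads rebuilt from the FPKM, 5 targets fell, beside 435 of all genes. Of 11 regulators of epithelial-mesenchymal transition, Zeb2 fell from 9.42 ± 1.34 to 6.30 ± 0.98 FPKM (limma adjusted p = 0.0441) and the other 10 did not pass. Snai1, with which Loxl2 has been described to interact, was at 8.497 ± 2.15 and 5.00 ± 1.46 FPKM (limma adjusted p = 0.101).

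Of the 16 genes named above under the rule for list genes, Postn and Ddit4 passed in all 6 leave-out fits and the other 14 were lost in at least 1, all 14 of them without soft replicate 2 and none without soft replicate 1. Pcolce and Zeb2 also lost their call when the filter on low values was dropped and when the replicate number was a block.

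Fibroblasts and endothelium also express lysyl oxidases, and their markers were read beside the family. Of 12 mesenchymal markers 11 were in the table, summing to 608 to 735 FPKM in soft gels and 762 to 785 FPKM in stiff gels, with Col1a1, Col1a2 and Acta2 under 1 FPKM in every library. The largest parts of these sums were Lum (means of 326 and 411 FPKM in soft and stiff gels) and Dcn (125 and 181 FPKM). Of the 8 tested markers none passed in either direction, and 3, Col3a1, Pdgfrb and Twist1, had a negative difference. Endothelial markers summed to 392 to 458 FPKM in soft gels and 340 to 426 FPKM in stiff gels, nearly all of it Emcn. Pecam1 and Tie1, which define endothelium, were at most 0.13 FPKM in every library. Of the 4 tested endothelial markers, Kdr, a receptor for VEGF, fell from 24.7 ± 5.17 to 10.7 ± 2.05 FPKM (limma adjusted p = 0.0104). Kdr lost its call in 2 of the 6 leave-out fits. The other 3 did not pass, with differences of -0.18 for Cdh5, -0.16 for Emcn and 0.11 for Tek. Markers of the cochlear epithelium and supporting cells summed to 1056 to 1128 FPKM in soft gels and 1121 to 1305 FPKM in stiff gels. Of the 10 tested, 5 rose (Sox2, Jag1, Lgr5, Otog and Tecta), against 3.13% of all genes. The other 5 did not pass, and 3 of them had a negative difference, Cdh1 (-0.22), Krt18 (-0.07) and Krt8 (-0.03). Leaving out soft replicate 1, 2 or 3 gave 6, 1 and 3 of these markers that rose, beside 860, 50 and 124 of all genes. Leaving out stiff replicate 3 gave 2 (beside 90 of all genes), and no call on this list was left once stiff replicate 1 was out (66 of all genes). Of 9 hair cell markers 4 were in the table, summing to 22.3 to 24.1 FPKM in soft gels and 24.2 to 26.6 FPKM in stiff gels. Nearly all of this was Myo6 (means of 21.8 and 23.3 FPKM in soft and stiff gels). Myo7a was at 1.64 FPKM in both gels, and Gfi1 and Otof were under 1 FPKM in every library. Atoh1 and Pou4f3 were among the markers not in the table. Of 7 macrophage markers only Cd68 was in the table, at 4.58 to 6.82 FPKM over all libraries. The part of these cell types in the lysyl oxidase differences was not tested.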

How the data were processed

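Alignment with TopHat2 2.1.1 to mm10 and the use of DESeq2 by the authors stand in the submitters' processing notes. Which counter and annotation they used is not given in the sources used here. Deposited by the authors was 1 table with an expression value per gene and library, taken as FPKM from its values because the header does not name the unit, a base mean (signal, the authors' mean of normalized counts), and the authors' log2 fold change, its standard error and p-value and q-value, per the file headers. The authors' test statistic is a score, per the file headers, and was not used. Reads per gene were rebuilt from the deposited FPKM and base mean; 100.0% of values came out whole within 0.05 reads. A count of 0 allows up to 3 reads, or 0.168 to 0.186 CPM here, which covers counting error only.

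Genes with a mean of at least 1 FPKM in either group were fitted as log2(FPKM + 1) with limma 3.58.1 (intensity trend, R 4.3.3), without a block, and p-values were adjusted by Benjamini-Hochberg over all genes tested. The fit was tested on simulated data. Alternatives were pseudocounts of 0.1 and 0.5, no filter, median-ratio scaling, limma-voom on the rebuilt reads, a replicate block, leaving out each library, and the authors' comparison. The family members and gene lists were chosen with earlier results of these data known. The rule for named genes took the 5 members, up to 3 passing genes per list and direction with the lowest adjusted p, and the 5 genes nearest in pattern to Lox, Loxl2 and Loxl4; of these nearest genes, some are not reported here. Col4a1, Fbln2, Kdr and the listed genes given without passing were named for their roles after their values were seen. Coordinates are from GENCODE M21 and the promoter from RefSeq, in which Loxl4 was the 1 member matched; the promoters of Lox, Loxl1, Loxl2 and Loxl3 were not analysed here.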

Additional observations from a re-analysis of the deposited data

How the results depend on the processing

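Lox, Loxl1, Loxl2, Loxl3 and Loxl4 kept the sign of their difference under every alternative run. When single libraries were left out, the log2 difference ran from -2.38 to -1.67 for Lox, -0.21 to -0.06 for Loxl1, -2.17 to -1.45 for Loxl2, -0.36 to -0.09 for Loxl3 and -1.31 to -1.21 for Loxl4. Loxl4, at -1.25 as reported, was -1.58 with a pseudocount of 0.1, -1.41 with 0.5, -1.62 with limma-voom on the rebuilt reads and -1.66 in the authors' deposited table, since the addition of 1 to a level near 2 FPKM shrinks a fold change.

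Counts of called genes depended on single libraries more than on any other choice tried. Over all genes, 369 higher ran from 50 (without soft replicate 2) to 860 (without soft replicate 1) and 316 lower from 15 to 767 (the same libraries), and the authors' deposited table called 703 lower. Limma-voom on the rebuilt reads called 488 higher and 435 lower. For the listed genes, 7 higher ran from 1 to 9 and 11 lower from 1 to 36 over the leave-outs, and 11 lower became 20 with limma-voom and 31 in the authors' deposited table. Deviations from the group means had correlations of 0.009, 0.219 and -0.211 between same-numbered libraries. With 3 libraries per group, such values cannot show whether the numbers pair the samples. With a replicate block, 381 genes were higher and 329 lower, and 19 listed genes were lower. The cause of these shifts was not tested. The fewest reads stood behind Loxl2 in stiff replicate 3 (114) and behind Loxl4 in the stiff libraries (174 to 195). With annotated exon lengths in place of those the table implies, the mean level of Loxl4 was 7.92 FPKM in soft gels and 2.56 in stiff gels, against 6.03 and 1.95 (the ratio between gels does not depend on length).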

Other observations

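The order of the 6 libraries that Lox and Loxl2 share (soft 2, soft 3, soft 1, stiff 2, stiff 1, stiff 3, from high to low) was looked for in the other genes after it had been seen. It was found in 102 of 11780 tested genes (0.866%), and in 8.30% of the 1229 genes whose stiff libraries all lay below their soft libraries. Of the 22 hypoxia-inducible genes tested, 7 had it. These were Pgk1 and Ldha of glycolysis, Pdk1, which keeps pyruvate from the mitochondria, Car9, a carbonic anhydrase at the cell surface, Ndrg1, Adm, which encodes adrenomedullin, and P4ha2, a collagen prolyl hydroxylase. Car9 was at 20.9, 35.4 and 23.6 FPKM in soft replicates 1 to 3 and at 13.6, 19.2 and 2.93 FPKM in stiff replicates 1 to 3. Pgk1 was at 479, 717 and 549 FPKM in soft gels and 329, 442 and 194 FPKM in stiff gels. That stiff replicate 3 was lowest in these genes follows from the order by which they were picked. The limma adjusted p of these 7 genes ran from 0.0527 (Ndrg1) to 0.157 (Car9), above the threshold, and Adm was tested only because its soft mean passed the filter. Among 13 TGF-beta targets, 11 substrate collagens and 16 elastic fibre genes the order was not found, while P4hb joined P4ha2 among 19 collagen-modifying genes. Loxl4 did not have it.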
